A study of Mus musculus with 4 samples.

Results

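Acetylcholine reaches the hippocampus mainly along the axons of cholinergic neurons of the basal forebrain, and hippocampal cells read it through receptors of 2 families and clear it with cholinesterases. The genes described here are 9 of the 29300 genes in the deposited count table, taken by their names: the muscarinic receptors Chrm1, Chrm2, Chrm3 and Chrm4, the nicotinic subunits Chrna4, Chrna7 and Chrnb2, and the enzymes Ache and Bche. All 9 had a row of their own, and all 9 passed the filter on low counts that left 17144 genes for testing. RNA was sequenced from hippocampal tissue of male C57BL/6 mice aged 7 to 8 months, of which 2 were control mice and 2 were surgery mice. Every mouse received isoflurane anesthesia and the analgesic tramadol; the surgery mice in addition had an open fracture of the tibia fixed with a pin, a model of perioperative neurocognitive disorder (PND). Tissue was taken on day 1 after the operation, and the comparison asks which transcripts differed between the hippocampi of the surgery and the control mice at that time.

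Muscarinic receptors are G protein-coupled. CHRM1 and CHRM3 couple to Gq, which activates phospholipase C and closes M-type potassium channels, whereas CHRM2 and CHRM4 couple to Gi and Go, which inhibit adenylyl cyclase and open GIRK potassium channels. Nicotinic receptors are pentameric cation channels: CHRNA4 and CHRNB2 assemble into the high-affinity receptor of the brain, and CHRNA7 forms a homomeric, calcium-permeable receptor. Acetylcholinesterase (ACHE) hydrolyses acetylcholine at the synapse, and butyrylcholinesterase (BCHE), an enzyme of glia and of blood plasma, does so more slowly.

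Of the 9 genes, Chrm1, Chrna4, Chrna7, Chrnb2 and Ache fell in the surgery mice and Chrm2 and Bche rose, at an adjusted p under 0.05 (edgeR, quasi-likelihood test, adjusted over all genes tested by the method of Benjamini and Hochberg). Chrm3 and Chrm4 did not pass. The 5 genes that fell make up 55.6% of the 9, against 12.8% of all genes tested, and the 2 that rose make up 22.2%, against 13.1%. The median log2 fold change, surgery over control, was -0.33 over the 9 genes and 0.01 over all genes tested; with offsets for transcript length and GC content, described below, it was -0.18 over the 9 genes. Chrna4 fell and Chrm2 and Bche rose by more than the fold limits of 1.5 and 0.67, which 2.25% of all genes passed downward and 6.75% upward. Both surgery mice lay below both control mice in 6 of the 9 genes (32.2% of all genes) and above them in 2 (33.2%), and only Chrm4 overlapped. Among all genes tested, 65.5% did not overlap, so the separation of the groups by itself was common in this table.

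**Figure D1:**
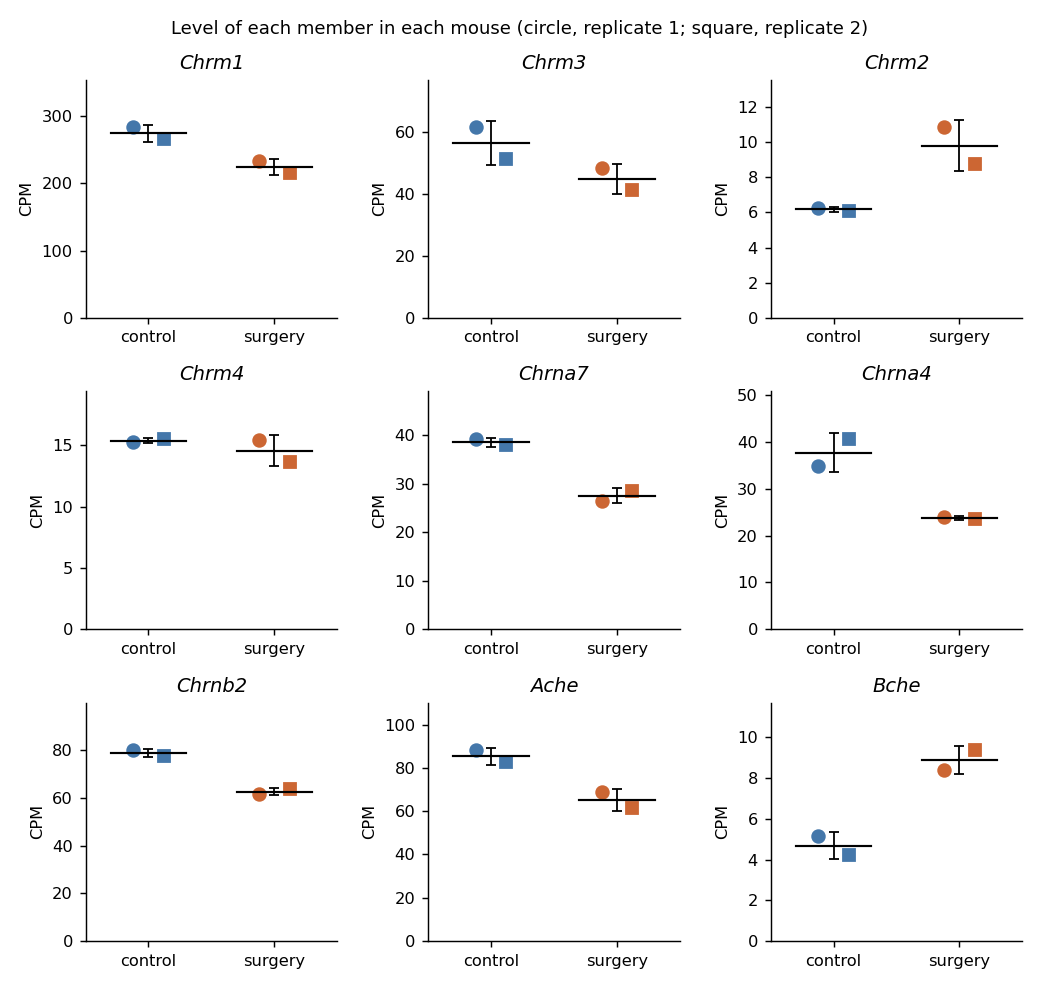
Level of each of the 9 genes in CPM (counts scaled to a common library size, vertical axes from 0) in each mouse, with circles for replicate 1 and squares for replicate 2, horizontal lines for group means and bars for SD (n = 2). The groups are apart in 8 panels and overlap for Chrm4, where surgery replicate 1 sits at 15.5 CPM between the control mice at 15.3 and 15.5 CPM.

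Each of the 4 libraries held 15763432 to 18573386 counts and 24238 to 25324 detected genes. The protein-coding and tRNA genes of mitochondrial DNA made up 2.53% and 2.82% of the control libraries, and 4.45% and 4.49% of the surgery libraries. Control replicate 1 stood apart in 6 choroid plexus markers, which summed to 127 CPM there and to 2027 to 5423 CPM in the other mice. The log2 fold change followed the GC content of the transcript over the whole table, with a Spearman rho of -0.63 across genes, which are not independent replicates. The test was therefore also run with offsets for transcript length and GC content, and the values with offsets are given for the 9 genes and for most other cholinergic genes named below. In simulated counts with a GC trend added, the fit without offsets called many unchanged genes and the fit with offsets few. The simulated trend was built from the same GC contents that the offsets fit, so its removal was set in advance. The simulation cannot show whether the offsets suit these libraries. The cause of the trend was not tested.

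The sequence upstream of 4 of the genes is shown to set the promoters of a pair that fell beside those of the pair that rose. The set of RefSeq promoters (GRCm38.p6) used here held 8 of the 9 genes and had no entry for Chrm1. Each run covers, of the 250 bases before the RefSeq start site, the part outside the deposited gene, 5′ to 3′ on the gene's strand, with every CG dinucleotide in capitals; the last C of the Chrna7 run is the first base of a CG that crosses into the gene.
Chrna7 (chr7:63212570-63212776, minus strand): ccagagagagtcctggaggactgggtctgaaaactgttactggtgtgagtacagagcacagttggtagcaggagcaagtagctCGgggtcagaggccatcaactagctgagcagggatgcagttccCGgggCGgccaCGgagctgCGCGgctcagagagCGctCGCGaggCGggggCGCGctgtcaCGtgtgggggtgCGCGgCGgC
Chrnb2 (chr3:89764633-89764882, minus strand): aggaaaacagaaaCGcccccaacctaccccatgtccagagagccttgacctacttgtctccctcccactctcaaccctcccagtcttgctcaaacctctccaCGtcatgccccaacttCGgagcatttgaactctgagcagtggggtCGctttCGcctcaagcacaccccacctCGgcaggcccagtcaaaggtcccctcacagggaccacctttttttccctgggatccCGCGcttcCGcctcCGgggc
Chrm2 (chr6:36387834-36388083, plus strand): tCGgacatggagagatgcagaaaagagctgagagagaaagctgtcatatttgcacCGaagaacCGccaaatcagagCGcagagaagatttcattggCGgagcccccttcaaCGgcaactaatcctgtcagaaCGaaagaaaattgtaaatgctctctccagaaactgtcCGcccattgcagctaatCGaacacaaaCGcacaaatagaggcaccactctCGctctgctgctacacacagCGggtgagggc
Bche (chr3:73708416-73708665, minus strand): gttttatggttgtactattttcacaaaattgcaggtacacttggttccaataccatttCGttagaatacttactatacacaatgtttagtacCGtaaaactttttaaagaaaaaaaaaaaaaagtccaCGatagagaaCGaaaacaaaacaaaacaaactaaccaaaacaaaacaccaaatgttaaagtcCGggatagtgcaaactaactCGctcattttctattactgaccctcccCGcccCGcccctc

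Over the full 250 bases, the promoter of Chrna7 held 25 CG dinucleotides, that of Chrnb2 10, that of Chrm2 12 and that of Bche 8, against a median of 6 over 32851 mouse promoters of the same length. Ache held 25 CG dinucleotides, Chrna4 24, Chrm4 26 and Chrm3 10. The windows of Ache and Chrna4 lie wholly inside the deposited gene, and that of Chrm4 ends at a start site 5060 bases before its counted exon. GC content ran from 35.6% in Bche to 74.4% in Chrna4, with a median of 52.4% over all promoters. The GC box GGGCGG, searched on both strands, occurred in 6 of the 8 promoters and in 32.7% of all promoters. Ache had 4 GC boxes, Chrm4 and Chrna4 3 each, Bche 2, and Chrna7 and Chrm2 1 each, counting overlapping matches, while Chrnb2 and Chrm3 had none in this window. The cAMP response element TGACGTCA (1.55% of all promoters), the NRF1 site (0.782%), the glucocorticoid response element (0.00913%) and RE1 (0.00304%), each searched on both strands, had no match in the 8 windows. These matches are letters in a sequence; the table holds no measurement of binding.

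Among the Gq-coupled receptors, Chrm1 had the highest level per length of the 9 genes. Chrm1 (ENSMUSG00000032773, mm10 chr19:8663789-8683587, plus strand) measured 283 and 265 CPM in the control mice and 233 and 216 CPM in the surgery mice, from 3640 to 4879 counts. Both surgery mice were below both control mice. The mean went from 274 ± 12.7 to 224 ± 11.9 CPM (SD, n = 2 each), a log2 fold change of -0.29 (SE 0.07, 95% interval -0.45 to -0.13, adjusted p = 0.0244). With the length and GC offsets the change was -0.18 (adjusted p = 0.285). Leaving out control replicate 1 or surgery replicate 2 gave adjusted p-values of 0.0843 and 0.0882. Each fit without a mouse, here and below, sets 1 mouse against 2, so that the spread comes from the other group and the lone mouse is assumed to vary like it. In bulk tissue, fewer cells of a type and less RNA per cell cannot be told apart, here or in any gene below.

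Chrm3, the other Gq-coupled receptor (ENSMUSG00000046159, chr13:9875486-10360847, minus strand), measured 61.4 and 51.3 CPM in the control mice and 48.3 and 41.3 CPM in the surgery mice. The surgery mice were again below the control mice, but the mice of each group were farther apart, relative to their mean, than for Chrm1. Its log2 fold change of -0.33 (SE 0.12, 95% interval -0.62 to -0.04) had an adjusted p of 0.0886 and did not pass, and with the offsets it was -0.32 (adjusted p = 0.222). Without control replicate 2 or surgery replicate 1 the 1-against-2 comparison passed, at adjusted p = 0.0481 and 0.0339, whereas without control replicate 1 it was -0.20 (adjusted p = 0.304) and without surgery replicate 2 -0.22 (adjusted p = 0.282).

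Of the Gi-coupled receptors, Chrm2 rose without offsets and Chrm4 was not called. Chrm2 (ENSMUSG00000045613, chr6:36388084-36528414, plus strand), an autoreceptor on cholinergic terminals that is also found on interneurons, was counted 108 and 111 times in control mice and 173 and 148 times in surgery mice. These counts correspond to 6.27 and 6.07 CPM against 10.8 and 8.77 CPM. The surgery mice were both higher, and differed more from each other than the control mice did. Chrm2 rose 1.59-fold on the fitted scale (log2 fold change 0.67, SE 0.18, 95% interval 0.23 to 1.11, adjusted p = 0.0407). The exact Poisson 95% intervals of its counts, which cover counting error only, overlapped between the groups, since control replicate 1 reached 7.57 CPM and surgery replicate 2 began at 7.41 CPM. The call was lost with DESeq2 (0.65, adjusted p = 0.101) and without the filter on low counts (adjusted p = 0.0765). Its change was 0.23 (adjusted p = 0.539) with the length and GC offsets. The rise passed in 1 of the 4 fits that left out a mouse, the one without surgery replicate 2 (adjusted p = 0.036), and had adjusted p-values of 0.0984 without control replicate 1, 0.137 without control replicate 2 and 0.163 without surgery replicate 1.

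Chrm4 (ENSMUSG00000040495, chr2:91927249-91928688, plus strand) measured 15.3 and 15.5 CPM in the control mice and 15.5 and 13.7 CPM in the surgery mice, from 231 to 284 counts. The groups overlapped. A log2 fold change of -0.08 (SE 0.13, 95% interval -0.39 to 0.23, adjusted p = 0.687) left changes inside that interval undetectable at this depth, and with the length and GC offsets its sign turned to 0.16 (adjusted p = 0.53). The annotation counts Chrm4 over a single exon of 1440 bases, and RefSeq places its start site 5060 bases before that exon.

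Levels can be set against each other between genes only per length, here as CPM per kilobase of merged exons. On that scale Chrm1 made up 65.5% and 65.1% of the summed level of the 5 muscarinic receptor genes in control mice and 62.7% and 63.3% in surgery mice. Chrm2 took 1.55% and 1.60% of the sum in control mice and 3.13% and 2.76% in surgery mice. Chrm4 took 15.9% and 17.2%, then 18.8% and 18.1%. Thus the Chrm1 share was lower and the Chrm2 and Chrm4 shares were higher in both surgery mice, while the shares of Chrm3 (12.6% to 14.7%) and Chrm5 (1.92% to 3.31%) overlapped. Chrm1 exceeded Chrm2 42.2 and 40.8 times in control mice, but 20.0 and 22.9 times in surgery mice. That of Chrm1 to Chrm3 overlapped, at 4.45 and 4.98 against 4.64 and 5.03. These values carry no offsets for GC content, with which neither Chrm1 nor Chrm2 was called. Shares and ratios are descriptions: an exact permutation test over 2 against 2 mice cannot reach the threshold, and none was run.

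**Figure D2:**
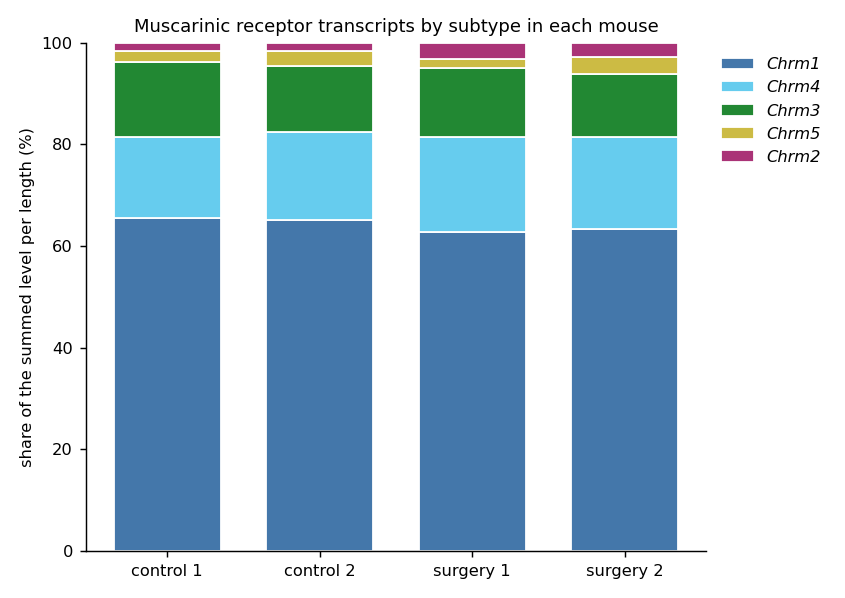
Share of each receptor gene in the summed level per length of Chrm1, Chrm4, Chrm3, Chrm5 and Chrm2 (vertical axis, percent; horizontal axis, the 4 mice). Chrm1 fills 62.7% to 65.5% of every bar, and the top segment, Chrm2, is 1.55% and 1.60% in control mice and 3.13% and 2.76% in surgery mice.

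All 3 nicotinic subunits fell. Chrna7 (ENSMUSG00000030525, chr7:63098692-63212569, minus strand) measured 39.2 and 37.9 CPM in the control mice and 26.5 and 28.6 CPM in the surgery mice, from 675 and 692 counts against 422 and 482. The mice within each group lay close together and the groups were well apart. Its mean went from 38.5 ± 0.938 to 27.5 ± 1.48 CPM (SD, n = 2 each), 1.40-fold lower in the surgery mice (log2 fold change -0.49, SE 0.09, 95% interval -0.70 to -0.27, adjusted p = 0.012). The fall passed in each of the 16 alternative analyses run for single genes, with log2 fold changes from -0.77 to -0.44 and adjusted p-values from 0.00401 to 0.0382. With the length and GC offsets it was -0.76 (adjusted p = 0.0237), a threshold that 1.73% of all genes passed downward in that fit.

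Chrna7 also stood against the table-wide trend with GC content, as measured on its longest transcript. When the genes were ordered by the GC content of their longest transcript and split into 8 bins of 2140 genes, the bin of Chrna7 (44.3% GC) had a median log2 fold change of 0.32. Of its genes, 30.9% rose and 1.07% fell at an adjusted p under 0.05. Only 31 of the 2140 had a lower log2 fold change than Chrna7. This rank is a description of these libraries and depends on the transcript used. Over all transcripts of Chrna7 the GC content was 47.8%. The bin from 47.2% to 49.6% GC had a median log2 fold change of 0.05 and a 5th percentile of -0.45. With length and GC offsets from all transcripts, Chrna7 was at -0.63 (edgeR, adjusted p = 0.0382).

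Chrna4 (ENSMUSG00000027577, chr2:181018380-181043546, minus strand) had the largest fall of the 9 genes without offsets, with 34.8 and 40.6 CPM in the control mice and 24.0 and 23.5 CPM in the surgery mice. The control mice differed from each other by more than the surgery mice did, and both lay above them. The log2 fold change was -0.67 (SE 0.11, 95% interval -0.93 to -0.41, adjusted p = 0.00795), which is 1.59-fold lower. In the fits of 1 mouse against 2 its values ran from -0.78 to -0.55, all past the threshold; it did not pass with the length and GC offsets (-0.46, adjusted p = 0.0684). In its own GC bin, where the median was -0.25 and 26.6% of the genes fell, 5.05% of the genes had a lower log2 fold change.

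Chrnb2 (ENSMUSG00000027950, chr3:89746195-89764632, minus strand), the partner of Chrna4, measured 79.9 and 77.6 CPM in the control mice and 61.5 and 63.6 CPM in the surgery mice. Neither group spread by more than a few CPM, and the groups did not overlap. Its log2 fold change was -0.33 (SE 0.07, 95% interval -0.50 to -0.17, adjusted p = 0.0168). The value with the offsets was -0.21 (adjusted p = 0.168), and without control replicate 1 the adjusted p was 0.0579. Exons of Adar on the opposite strand cover 16.3% of the merged exons of Chrnb2. Adar itself had a log2 fold change of -0.24 (adjusted p = 0.0282), and, with the use of strand in counting not stated, reads from the shared stretch cannot be told apart.

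Per length, Chrna4 stood to Chrnb2 as 0.726 and 0.873 in control mice and 0.651 and 0.616 in surgery mice, so that the ratio was lower in both surgery mice. Chrna7 stood to Chrnb2 as 0.913 and 0.908, then 0.800 and 0.836; per kilobase of the longest transcript the latter ratio was 1.12 and 1.11, then 0.978 and 1.02. No test was run on these ratios.

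The cholinesterases moved in opposite directions. Ache (ENSMUSG00000023328, chr5:137287519-137294466, plus strand) measured 88.1 and 82.7 CPM in the control mice and 68.9 and 61.6 CPM in the surgery mice. Both surgery mice were lower. The log2 fold change was -0.39 (SE 0.08, 95% interval -0.59 to -0.19, adjusted p = 0.0185), and -0.11 (adjusted p = 0.563) with the offsets. Without control replicate 1 and without surgery replicate 2 the adjusted p was 0.0581 and 0.0649. Ache has the highest transcript GC content of the 9 genes, 58.7%, and in its GC bin the median was -0.34 and 38.4% of the genes fell.

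Bche (ENSMUSG00000027792, chr3:73635808-73708415, minus strand) was the least abundant of the 9 genes, counted 89 and 77 times in control mice and 134 and 158 times in surgery mice. In CPM these are 5.17 and 4.21 against 8.40 and 9.36. Both surgery mice were higher, and the exact Poisson 95% intervals ended at 6.36 and 5.27 CPM in the control mice and began at 7.04 and 7.96 CPM in the surgery mice. Bche rose 1.90-fold (log2 fold change 0.92, SE 0.19, 95% interval 0.46 to 1.39, adjusted p = 0.0178), the largest change of the 9 genes without offsets. With the offsets it was 0.25 (adjusted p = 0.469), and without control replicate 2 and without surgery replicate 2 the adjusted p was 0.0822 and 0.0545. Bche has the lowest transcript GC content of the 9, 38.3%, and shares its GC bin with Chrm2; there the median was 0.59 and 50.1% of the genes rose. Per length, Ache exceeded Bche 24.9 and 28.6 times in the control mice and 11.9 and 9.60 times in the surgery mice, in values without offsets.

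**Figure D3:**
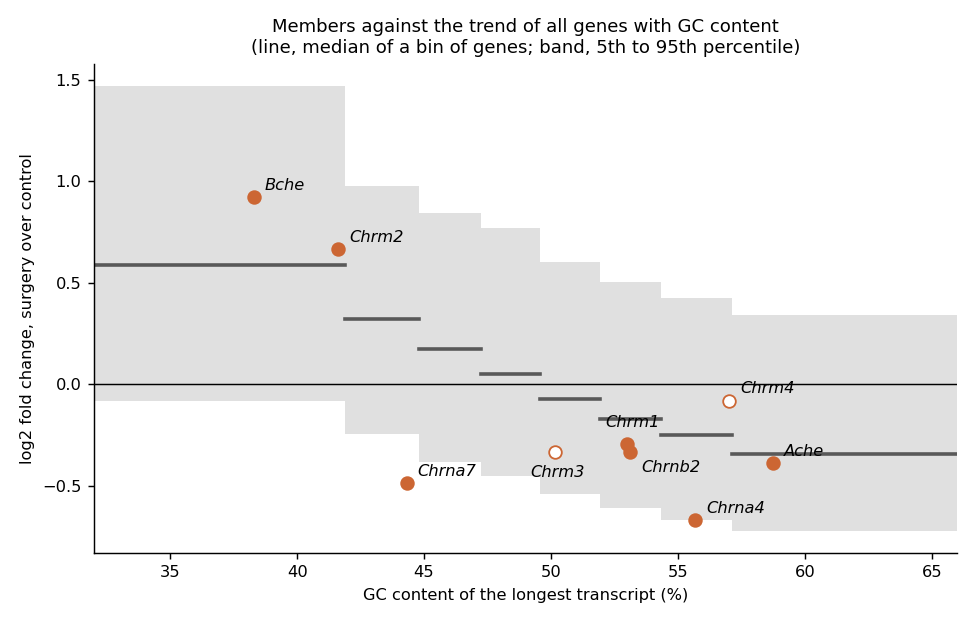
Log2 fold change, surgery over control (vertical axis), of each of the 9 genes (points; filled, adjusted p under 0.05) against the GC content of its longest transcript (horizontal axis, percent). Grey lines are the medians and bands the 5th to 95th percentiles of 8 bins of 2140 genes; the medians descend from 0.59 to -0.34, Chrna7 lies below the band of its bin, and Bche, Chrm2 and Ache lie within theirs.

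With the length and GC offsets, Chrna7 was the only one of the 9 genes to pass the threshold, and none rose. By that fit of edgeR, 4 of the 9 genes had a log2 fold change below 0 and 0 had one above 0 at an unadjusted p under 0.05. Over the whole table, 1.73% of the genes fell and 0.689% rose in that fit at an adjusted p under 0.05. These shares are no background for the counts at an unadjusted p, for which the share over all genes is not given here. Without offsets, DESeq2 and limma-voom each called 5 falls among the 9 genes, as edgeR did, against 15.6% and 12.6% of all genes. DESeq2 called 1 rise and limma-voom 2, against 12.7% and 12.9% of all genes.

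**Figure D4:**
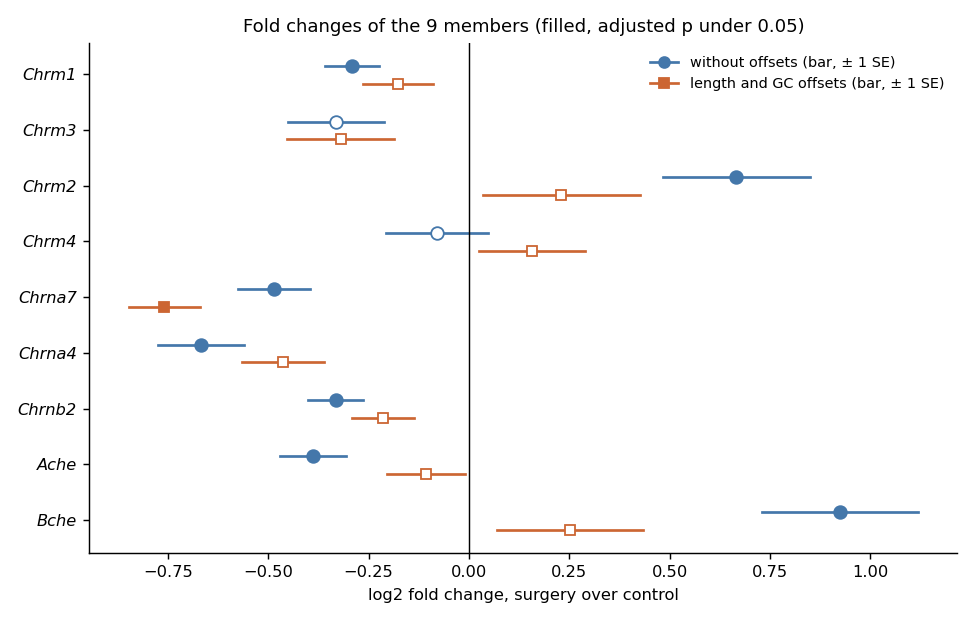
Log2 fold change, surgery over control (horizontal axis), of each of the 9 genes without offsets (circles) and with length and GC offsets (squares), with bars of 1 SE and filled symbols for an adjusted p under 0.05. The values for Bche go from 0.92 to 0.25 and those for Chrna7 from -0.49 to -0.76; Chrna7 has the only filled square.

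Per kilobase of merged exons, the 9 genes had the same order of mean levels in both groups: Chrm1, Ache, Chrm4, Chrnb2, Chrm3, Chrna7, Chrna4, Chrm2 and Bche. The middle of this order depends on the length used. Per kilobase of the longest transcript, Chrm1 and Ache still had the highest means and Chrna4, Chrm2 and Bche the lowest, but in the control mice the others ran Chrna7 (13.7), Chrm3 (13.0), Chrnb2 (12.3) and Chrm4 (10.7), and in the surgery mice Chrm3 (10.3), Chrm4 (10.1), Chrna7 (9.78) and Chrnb2 (9.77). On merged exons, in the control mice the means ran from 42.3 CPM per kilobase for Chrm1 and 18.5 for Ache to 1.02 for Chrm2 and 0.696 for Bche. In the surgery mice these 4 were 34.6, 14.1, 1.62 and 1.32. Neighbours overlapped between mice for Chrnb2 with Chrm3 and for Chrm3 with Chrna7 in the control mice, and for Chrnb2 with Chrm3 in the surgery mice. Chrm1 stood above 92.7% to 93.8% of all genes tested in every mouse, and Bche above 15.9% to 25.6%.

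Other genes of the cholinergic system were taken from 6 lists by role, with 61 listed, 58 in the table and 50 tested. Of the 50, 13 fell and 5 rose, against 12.8% and 13.1% of all genes tested. The rises were thus near the share of the whole table. With the length and GC offsets, by which 1.73% of all genes fell and 0.689% rose, 2 fell and none rose. In that fit of edgeR, 12 genes below 0 and 1 above 0 had an unadjusted p under 0.05. The share of all genes at that unadjusted threshold is not given here. Without offsets their log2 fold changes had a median of -0.07. Of the 7 other receptor subunits tested none was called by edgeR, DESeq2 or limma-voom, and 0 had an unadjusted p under 0.05 in any of these tests; with so few genes, 0 calls lie near the share over the whole table. In the fit with offsets none was called and 1 gene below 0 had an unadjusted p under 0.05 by edgeR.

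The remaining receptor subunits were scarce. Chrm5, the other Gq-coupled muscarinic receptor, was counted 42 and 55 times in control mice and 28 and 47 times in surgery mice (log2 fold change -0.26, adjusted p = 0.595). Chrna5, an accessory subunit of receptors with CHRNA4 and CHRNB2, had 87 and 75 counts against 49 and 58 (-0.49, adjusted p = 0.181), and was at -0.65 (adjusted p = 0.170) with the offsets. Chrna3 had 17 and 18 counts against 24 and 29 (0.71, adjusted p = 0.166), and its frequent partner Chrnb4 had 3 and 35 against 21 and 40 (0.79, adjusted p = 0.483). Chrnb4 thus differed within the control group by more than between groups. Chrna1, a muscle-type subunit, had a log2 fold change of 0.87 (adjusted p = 0.16), and Chrna2 of -0.40 (adjusted p = 0.40). Chrna9, Chrnd and Chrng were not analysed here.

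Genes of acetylcholine synthesis and vesicular loading were at or near the floor. Chat, which makes acetylcholine, was counted 4 and 2 times in control mice and 2 and 1 times in surgery mice, and Slc18a3, the vesicular transporter, had 6 and 3 against 0 and 1. Both were removed by the filter and no fold is given. Slc5a7, the high-affinity choline transporter, had 10 and 5 counts against 10 and 14 (log2 fold change 0.78, adjusted p = 0.312). The 8 markers of cholinergic neurons summed to 5.22 and 4.38 CPM in control mice and to 4.14 and 5.10 CPM in surgery mice and Lhx8, which marks forebrain cholinergic neurons, was at 0 counts in 3 mice and at 1 in control replicate 2. The choline transporters Slc44a1 (-0.10, adjusted p = 0.511) and Slc44a2 (-0.06, adjusted p = 0.621) did not pass, nor with the offsets, where Slc44a1 was at -0.52 (adjusted p = 0.0734). Of the 3 tested genes of this list 0 were called, and 0 had an unadjusted p under 0.05, in edgeR, DESeq2 and limma-voom.

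Of 9 tested genes for receptor assembly, LY6 proteins and cholinesterase anchors, 3 fell by edgeR, against 12.8% of all genes, and none rose, against 13.1%, by edgeR, DESeq2 or limma-voom, in which 0 rises had an unadjusted p under 0.05. Lynx1, a membrane-anchored LY6 protein that restrains nicotinic receptors, measured 508 and 467 CPM in the control mice and 341 and 292 CPM in the surgery mice. Both surgery mice were lower (log2 fold change -0.62, SE 0.09, adjusted p = 0.0062). Ly6h, a related protein that limits CHRNA7 at the cell surface, went from 304 and 333 CPM to 235 and 209 CPM, also without overlap (-0.52, SE 0.08, adjusted p = 0.00723). Ly6e fell by 0.25 on the log2 scale (adjusted p = 0.0466), and was at -0.045 (adjusted p = 0.791) with the offsets. By limma-voom 2 genes of this list fell. Lypd1 was at 0.40 (adjusted p = 0.143), and Ric3, a chaperone of CHRNA7, at -0.11 (adjusted p = 0.271), or -0.36 (adjusted p = 0.0562) with the offsets. With the length and GC offsets Lynx1 was at -0.41 (adjusted p = 0.0949) and Ly6h at -0.38 (adjusted p = 0.0707), so none of the 3 falls passed.

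In the Gq arm 4 of 13 genes fell and 3 rose, against 12.8% and 13.1% of all genes, and with the length and GC offsets 1 fell and none rose. Gna11, a Gq-family alpha subunit, fell by 0.52 on the log2 scale (adjusted p = 0.00519) and Itpr1, the IP3 receptor, by 0.37 (adjusted p = 0.0134). Kcnq3, an M-channel subunit, rose by 0.28 (adjusted p = 0.025). Named after their values were seen, Gnaq, the other Gq-family alpha subunit of the list, and Plcb1, a phospholipase C, rose by 0.25 and 0.27. With the offsets Gna11 was at -0.27 (adjusted p = 0.094), Kcnq3 at -0.0087 (adjusted p = 0.959), Gnaq at 0.096 (adjusted p = 0.417) and Plcb1 at -0.0071 (adjusted p = 0.972). Of the genes named here only Itpr1 kept its call, and 0 rises of this list had an unadjusted p under 0.05 in that fit of edgeR.

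In the Gi arm 4 of 12 genes fell and 2 rose, against 12.8% and 13.1% of all genes, the rises thus near the share of the table. With the length and GC offsets none of these 6 passed. In that fit 1 other gene of the list fell, Rgs7, described below, and none rose, against 1.73% and 0.689% of all genes. Kcnj3, a GIRK channel subunit, measured 71.3 and 56.1 CPM in the control mice and 108 and 116 CPM in the surgery mice. It rose without overlap (log2 fold change 0.81, SE 0.12, adjusted p = 0.0064), and was at 0.50 (adjusted p = 0.0684) with the offsets. Kcnj9, another GIRK subunit, fell by 0.35 (adjusted p = 0.0118), Adcy5, an adenylyl cyclase, by 0.40 (adjusted p = 0.0186) and Gnb1, a G protein beta subunit, by 0.22 (adjusted p = 0.0291). Named after their values were seen, Gnai2 fell by 0.24 and Gnai1 rose by 0.21. With the offsets Kcnj9 and Adcy5 were both at -0.11 (adjusted p = 0.445 and 0.433), Gnb1 at -0.29 (adjusted p = 0.0621), Gnai2 at 0.0016 (adjusted p = 0.993) and Gnai1 at -0.16 (adjusted p = 0.209).

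Among 6 genes of desensitization, the arrestins Arrb2 (-0.40, adjusted p = 0.0123) and Arrb1 (-0.22, adjusted p = 0.0442) fell, against 12.8% of all genes. A share of 13.1% of all genes rose, and of these 6 none rose by edgeR, DESeq2 or limma-voom, in which 0 rises had an unadjusted p under 0.05; the receptor kinases Grk2 and Grk6 were at -0.21 and -0.23, both at adjusted p = 0.0549. With the offsets Arrb2 was at -0.19 (adjusted p = 0.248), Arrb1 at -0.09 (adjusted p = 0.559), and Grk2 and Grk6 at 0.028 and 0.021.

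**Figure D5:**
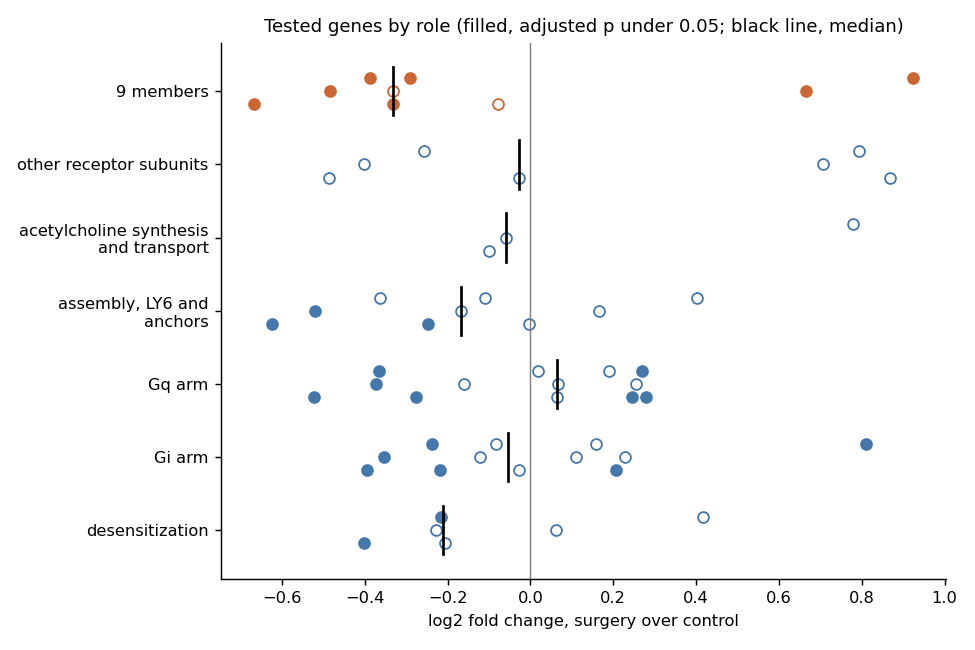
Log2 fold change, surgery over control (horizontal axis), of each tested gene by role (rows), with filled points for an adjusted p under 0.05 and black lines for medians. The median is -0.33 for the 9 genes and lies between -0.21 and 0.06 for the 6 other lists, and the Gq and Gi rows hold filled points on both sides of 0.

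With the offsets, 2 of the 50 genes passed, both lower, against 1.73% of all genes that fell and 0.689% that rose in that fit: Itpr1 (-0.40, adjusted p = 0.0425) and Rgs7, which was named after its values were seen (-0.56, adjusted p = 0.0357). Without offsets Rgs7, a regulator of Gi and Go signalling, was at 0.23 (adjusted p = 0.0513), so its sign turned.

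Markers of cell types and subfields moved in both directions beside these genes. Of 8 markers of hippocampal subfields 2 fell and 2 rose, and their summed level was 767 to 823 CPM in the control mice and 638 to 698 CPM in the surgery mice. The CA1 markers Wfs1 and Fibcd1 fell by 0.70 and 0.64 on the log2 scale, and C1ql3 and Nectin3 rose by 0.67 and 0.41. With the offsets C1ql3 kept its call (0.80, adjusted p = 0.0336), and Wfs1 (-0.44, adjusted p = 0.0995), Fibcd1 (-0.35, adjusted p = 0.0589) and Nectin3 (0.19, adjusted p = 0.362) did not. Of 5 markers of excitatory neurons 2 fell and 1 rose, with sums of 6972 to 7154 CPM in the control mice and 5848 to 5928 CPM in the surgery mice. Of 7 markers of inhibitory interneurons 2 fell and 2 rose, with sums of 939 to 975 and 794 to 955 CPM. Among 6 astrocyte markers 2 rose and 1 fell, and the sums overlapped (1228 to 1369 and 1321 to 1400 CPM). None of the marker lists for oligodendrocytes, choroid plexus, striatum and thalamus had a called gene in edgeR, DESeq2 or limma-voom. By edgeR, 2 thalamus genes had an unadjusted p under 0.05, and 0 genes of the others did. All 6 thalamus markers lay above 0, from 0.13 to 0.82, with a median of 0.35, or 0.32 with the offsets. They summed to 104 and 96.6 CPM in the control mice and to 122 and 115 CPM in the surgery mice. Of 6 general neuron markers 1 rose and 1 fell, and 1 of 7 microglia and 1 of 5 endothelium markers rose. Over all genes, 12.8% fell and 13.1% rose. In the edgeR fit with offsets, the lists for excitatory neurons, inhibitory interneurons, astrocytes, microglia and endothelium had 0 called genes. At an unadjusted p under 0.05 each held 1 gene above 0 and the astrocyte list 2 below 0. The thalamus list had 0 called genes in that fit, and 3 of its 6 genes lay above 0 at an unadjusted p under 0.05. The share of all genes at that unadjusted threshold is not given here. The list of general neuron markers had 1 called fall and 1 called rise. The part of these markers in the changes of the 9 genes was not tested.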

How the data were processed

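Hippocampal RNA of 2 control and 2 surgery mice was sequenced, 1 library per mouse. The authors mapped reads to mm10 and deposited raw counts per gene; the submitters' processing notes name HISAT2 2.1.0, HTSeq 0.6.0, Bowtie2 2.2.3 and TopHat2, and the use of strand is not given in the sources used here. The deposited table also holds the authors' comparison, namely a mean signal, a fold change as a ratio, its log2 and p-values; none of these was used. Groups came from the treatment labels.

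The count test was edgeR 4.0.16 (R 4.3.3), with filterByExpr at a minimum count of 10, TMM factors, its quasi-likelihood F test, and Benjamini-Hochberg adjustment over 17144 genes at 0.05. CPM are counts relative to the TMM-scaled library size, as edgeR's cpm gives them. Lengths, GC contents and exon overlaps came from GENCODE M21, in which all 9 genes have the deposited coordinates; none shared a 75-base window of transcript with another gene. Smooth trends of log2 CPM on length and on GC content, per library (mgcv 1.9.3, basis size 8), gave the offsets. DESeq2 1.42.0, limma 3.58.1, other scalings, other filters, the replicate number as a block and leaving out each mouse were the alternatives. The test was checked on simulated counts, without and with an added GC trend.

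The 9 genes and all lists were chosen with earlier results of these data known. Besides the 9 genes, the text names Chrm5, Chrna3, Chrna5, Chrnb4, Chat, Slc18a3 and Slc5a7, and up to 4 genes of the lowest p per list; the single values of some genes of the Gq list are not reported here. The mice are separate animals, 2 per group, and the replicates of each group differed by more than the sampling noise (chi-square per degree of freedom 13.5 and 8.48). Total counts were 15763432 to 18573386.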

Additional observations from a re-analysis of the deposited data

How the results depend on the processing

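Chrna7 and Chrna4 had log2 fold changes below 0 in all 16 alternatives for single genes, those of Chrna4 from -0.78 to -0.45. Chrna7 never lost its call, and Chrna4 lost it in 3, all of them fits with offsets. The count of falls among the 9 genes, 5, became 1 with the fold limits, 3 without the filter on low counts, 1 with length and GC offsets, 3 with the replicate block and these offsets, and 1 each with a GC offset alone and with length and GC values from all transcripts, both of which were added after seeing the data. The count of rises, 2, became 1 without the filter and 1 by DESeq2, and 0 under each of the 4 fits with offsets. Leaving out 1 mouse gave 2 to 6 falls and 0 to 1 rises; there were 2 falls without control replicate 1 and 3 without surgery replicate 2. Chrm4 changed sign with the offsets (0.16), with the block and offsets (0.16), with the GC offset alone (0.16), with all transcripts (0.17) and, among fits without 1 mouse (-0.19 to 0.013), without surgery replicate 2 (0.013). Over the whole table, 2201 falls and 2249 rises became 386 and 1158 with the fold limits, 1350 and 1315 without the filter, 296 and 118 with the offsets, 369 and 142 with the GC offset alone and 178 and 94 with all transcripts; the block with offsets gave 1552 falls and 697 rises, and leaving out 1 mouse gave 1207 to 2080 falls and 1201 to 2025 rises. In the 6 lists, 13 falls and 5 rises became 1 and 1 with the fold limits, 8 and 1 without the filter, 2 and 0 under the offsets, the GC offset alone and all transcripts, and 8 and 2 with the block and offsets; scaling by totals gave 8 falls and DESeq2 size factors 3 rises, and leaving out 1 mouse gave 8 to 11 falls and 2 to 3 rises, with 8 falls without either control replicate and 2 rises without control replicate 2. With the longest transcript as the length, the Chrm1 share was 62.3% in the control and 60.2% in the surgery mice in place of 65.3% and 63.0%; single mice gave 65.1% to 65.5% and 62.7% to 63.3%. The causes of these shifts were not tested.

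The replicate numbers do not pair the mice by any label, and the deviations of control replicate 1 and surgery replicate 1 from their group means correlated at 0.22 over 17144 genes. With the replicate number as a block, 6 of the 9 genes fell, Chrm3 among them (adjusted p = 0.0182; -0.32 and 0.0289 with the block and offsets), and 2626 genes fell and 2653 rose over the table.

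The report rests on 2 mice per group. The edgeR p-values set the group difference against the spread within groups, which was estimated with information from all genes tested. They cover these 4 mice only. Chrm2 and Bche have 77 to 173 counts per mouse, and their intervals are the widest of the 9 genes. At the depth of these libraries Chat and Slc18a3 could not be tested.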
